A study of Homo sapiens with 42 samples.

Results

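The comparison described here sets the 3 end-repaired small RNA libraries labelled E4 against the 3 end-repaired libraries labelled mock, chosen by their labels alone: 6 of the 30 libraries with a column in the count table and of 42 labelled samples in 14 groups of 3. E4 is a group of THP-1 cells, a human monocytic leukaemia line, in a series on loss of POLR3G or POLR3GL in these cells and on knockdown of POLR3G in HEK293T; the gene that was disrupted in E4 is not named, nor is it said whether E4 is a single clone. Mock is labelled as HEK293T, a human embryonic kidney line that carries the SV40 large T antigen, given 200 nM of a control antisense oligonucleotide by lipid transfection. RNA of both groups was treated with Antarctic phosphatase and polynucleotide kinase (plus PNK) before the libraries were made. The labels describe the extraction, a small RNA enrichment with the mirVana PARIS kit, for THP-1 cells only, and they give E4 and mock different cell lines, so genotype, cell line and transfection cannot be told apart by design. The libraries are called by their labels throughout, and the cell identity of mock is treated as open. Nothing in the labels says that the 3 libraries of a group came from separate cultures, so each p-value is set against the variation among libraries, which may be technical.

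RNA polymerase III (Pol III) makes short structured RNAs: transfer RNAs, 5S ribosomal RNA, U6 and 7SK RNA, the 7SL RNA of the signal recognition particle, Y and vault RNAs, and the RNA parts of RNase P (RPPH1) and RNase MRP (RMRP). POLR3G and POLR3GL are alternative forms of one of its subunits, POLR3G being typical of stem and tumour cells and POLR3GL of most differentiated ones. Small RNA ligation takes RNAs with a 5′ phosphate and a 3′ hydroxyl; phosphatase and kinase treatment gives these ends to fragments that lack them, so the libraries hold pieces of rRNA, tRNA and long RNAs beside miRNA and snoRNA.

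The RNAs that the results turn on are shown first, with sequences from GENCODE release 29 (GRCh38), 5′ to 3′. The Y RNAs bind the Ro60 protein through the stem that their ends form, and the run in capitals is the longest that RNY1 and RNY4 share; RNY1 was higher in E4, while RNY3 and RNY4 did not pass the test. VTRNA2-1, also called nc886, is a Pol III RNA that binds the kinase PKR, and the capitals mark its B box (GGTTCNA, searched on the transcript strand), an internal promoter element of the tRNA type; the stretch shown is the one the deposited row covers. SNORD48 and SNORD107 are C/D box snoRNAs, which guide 2′-O-methylation, and had the largest rises of their class among members of at least median abundance without overlap between the groups; the capitals mark TGATGA of the C box and CTGA of the D box.
RNY1 (chr7:148987136-148987248, minus strand): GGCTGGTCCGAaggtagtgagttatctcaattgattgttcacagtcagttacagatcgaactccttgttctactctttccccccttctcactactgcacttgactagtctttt
RNY4 (chr7:148963315-148963410, plus strand): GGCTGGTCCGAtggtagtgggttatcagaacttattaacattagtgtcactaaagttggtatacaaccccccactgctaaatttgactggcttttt
VTRNA2-1 (chr5:136080497-136080597, minus strand): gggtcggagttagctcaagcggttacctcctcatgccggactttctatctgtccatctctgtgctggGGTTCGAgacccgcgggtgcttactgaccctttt
SNORD48 (chr6:31835263-31835326, plus strand): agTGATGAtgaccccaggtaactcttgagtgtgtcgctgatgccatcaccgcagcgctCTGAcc
SNORD107 (chr15:24981994-24982068, plus strand): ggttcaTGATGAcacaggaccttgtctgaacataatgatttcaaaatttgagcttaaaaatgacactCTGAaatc

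Mature miRNAs of loci that were higher in E4 are grouped by seed, bases 2 to 8 in capitals, with sequences from RefSeq (GRCh38.p14). The grouping is of the printed sequences, and which arm of a hairpin the counts of a row come from is not known. The intervals listed for MIR25, MIR92A1 and MIR146A cover the printed arm, while those for MIR17, MIR20A, MIR92A2, MIR146B, MIR221 and MIR222 do not. MIR92A1 and MIR92A2, which have the same 3p arm, had near-equal counts although only the interval of MIR92A1 covers it; no other pair was compared in this way. Values below are therefore given by locus, as the rows name it, and not by arm or seed.
hsa-miR-17-5p: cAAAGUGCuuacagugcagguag
hsa-miR-20a-5p: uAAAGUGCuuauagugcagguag
hsa-miR-92a-3p: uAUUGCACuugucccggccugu
hsa-miR-25-3p: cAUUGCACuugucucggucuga
hsa-miR-146a-5p: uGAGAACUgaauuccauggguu
hsa-miR-146b-5p: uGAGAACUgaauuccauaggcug
hsa-miR-221-3p: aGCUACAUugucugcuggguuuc
hsa-miR-222-3p: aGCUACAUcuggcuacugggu

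After overlapping rows had been thinned to one row per stretch, the E4 libraries held 7.04, 7.42 and 7.62 M counts and the mock libraries 6.68, 7.66 and 6.50 M, with M for 1e6. Mock replicate 1 stood apart: a chi-square statistic per feature, with 1 as the value for sampling noise alone, was 100 and 91.7 between it and the other mock libraries, against 7.66 between those and 3.95 to 19.8 between E4 libraries. E4 replicate 3 was the lowest E4 library in snaR, RMRP, H/ACA snoRNA and scaRNA. Whether these differences bear on the results beyond the values without those libraries given below was not tested. Counts ignored strand, and near-identical copies share reads.

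The label of mock was checked on rows that lie over exons of coding genes, with lists drawn up after other values had been seen. Rows over monocytic genes such as PTPRC, SPI1, LAPTM5 and LYZ summed to 343 to 362 CPM in E4 (CPM, counts per 1e6 counts of the library, scaled with edgeR's TMM factors), and to 391 to 409 CPM in mock. The 22 such rows that were tested lay over 13 of 25 listed genes and had a median log2 fold change of 0.00. The row over FCGR1A, a monocyte Fc receptor, was higher in E4 and one over LYZ, which encodes lysozyme, was lower. Rows over 25 genes typical of HEK293T summed to 1.499 to 3.13 CPM in E4 and 3.49 to 6.18 CPM in mock, with rows over only 2 of these genes, CADM1 and DACH1, abundant enough to test; the DACH1 row was lower in E4. Rows over monocytic genes were thus counted in the mock libraries at no lower a level than in E4, while the labels give mock as kidney cells. In bulk RNA, fewer cells of a type and less RNA per cell cannot be told apart.

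C/D snoRNA and miRNA took a larger share of the E4 libraries, and rRNA a larger share of the mock libraries. Fragments of 18S, 28S and 5.8S rRNA held 48.9 ± 1.74% of counts in E4 and 58.2 ± 4.92% in mock (mean ± SD, n = 3 each, as for all shares here). C/D snoRNA held 15.7 ± 1.60% in E4 and 7.88 ± 3.16% in mock. In single libraries that was 14.9%, 14.6% and 17.5% in E4, against 11.5%, 6.07% and 6.05% in mock, so the groups did not overlap although mock replicate 1 lay between the rest. Nuclear tRNA held 10.1 ± 0.665% in E4 and 9.10 ± 3.18% in mock, where replicate 1 alone reached 12.8%, above every E4 library. miRNA held 0.692 ± 0.0317% in E4 and 0.414 ± 0.0225% in mock. At this depth counting error is far below these spreads: the 95% Wilson interval of the miRNA share was 0.697% to 0.709% in E4 replicate 1. Such intervals cover counting error only.

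**Figure D1:**
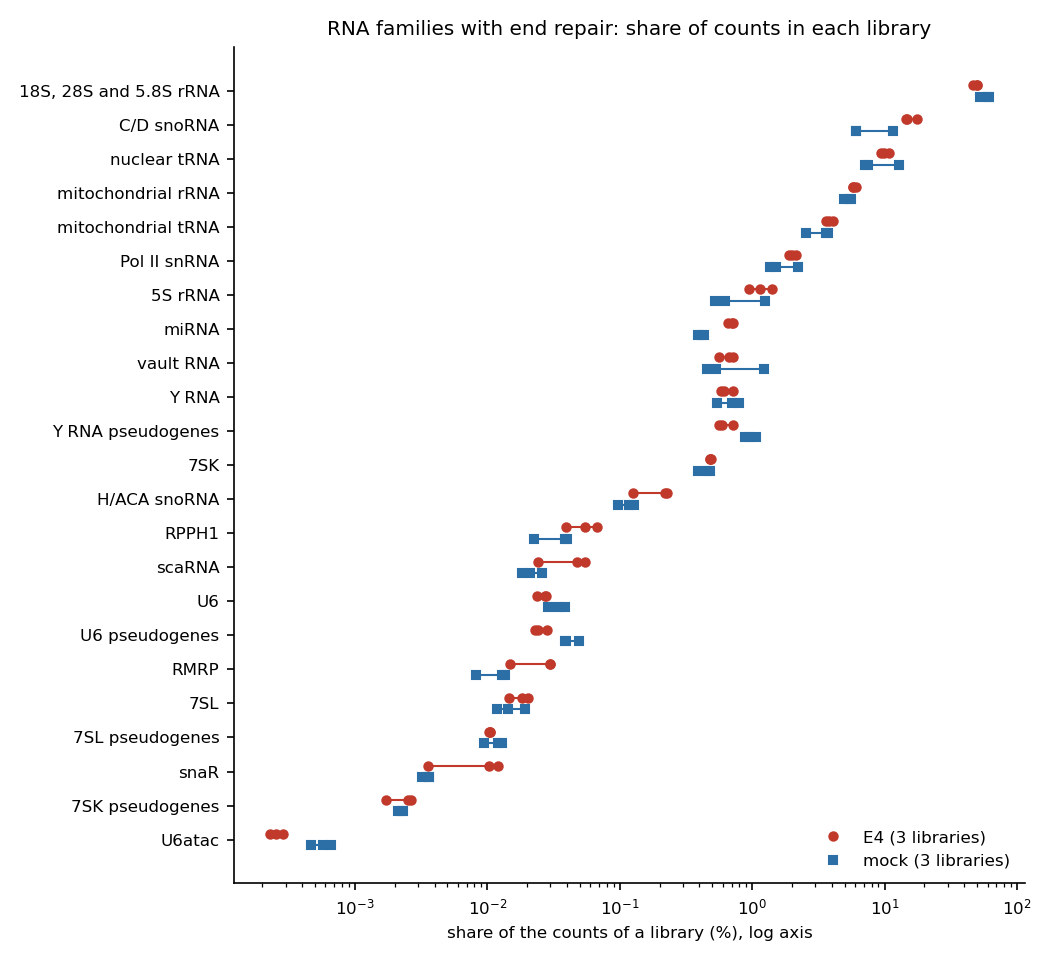
Share of the counts of each library in 23 RNA families (percent, log axis), E4 libraries as circles above mock libraries as squares. C/D snoRNA and miRNA lie to the right in all E4 libraries, and mock replicate 1 is the isolated right-hand square for nuclear tRNA, 5S rRNA and vault RNA.

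With a count model over all 15 end-repaired libraries (edgeR's quasi-likelihood test, Benjamini-Hochberg adjusted p under 0.05 as the threshold), 721 of 9098 features differed between E4 and mock, 7.92% of those tested. Of these, 492 were higher in E4 (5.41%) and 229 were lower (2.52%). In 2654 features, 29.2%, the 3 E4 libraries lay all above or all below the 3 mock libraries. They were above in 1425 and below in 1229. The number of features called was 399 without E4 replicate 1, 419 without E4 replicate 2 or without mock replicate 3, 423 without mock replicate 2, 520 without E4 replicate 3 and 688 without mock replicate 1. Among short structured RNAs the higher calls were 114 of 204 C/D snoRNAs, 105 of 372 nuclear tRNA rows, 59 of 203 miRNA rows, 23 of 95 H/ACA snoRNAs, 15 of 75 Pol II snRNA rows, 9 of 20 mitochondrial tRNAs, 8 of 12 snaR rows and 5 of 20 scaRNAs. Only 131 of 7636 long non-coding RNA rows were higher, while 217 were lower. Their median log2 fold change was -0.07, against 1.32 for C/D snoRNA, 0.99 for miRNA and 0.80 for nuclear tRNA, and -0.01 over all features.

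These directions are relative to the median feature, which is a fragment of a long RNA. With library totals alone as the scaling, the median of all features was -0.30, and 250 features were higher and 535 lower, so that 31.8% of the calls were higher, against 68.2% with TMM factors. C/D snoRNA still had 97 rises among 204, nuclear tRNA had 60 rises and 6 falls, miRNA 29 and 5, and H/ACA snoRNA 10 and 1. With factors taken from the 203 miRNA rows alone, the median was -1.12 and 72 features were higher against 5417 lower. With the short structured RNAs tested on their own, 79 of 1464 were higher and 120 were lower. Here and in later fits of short structured RNAs alone, the set also holds the rRNA rows, which are longer. The rises described below are therefore rises against fragments of long RNAs; among the short RNAs themselves the order of change differs, and it is given where it turns a direction.

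**Figure D2:**
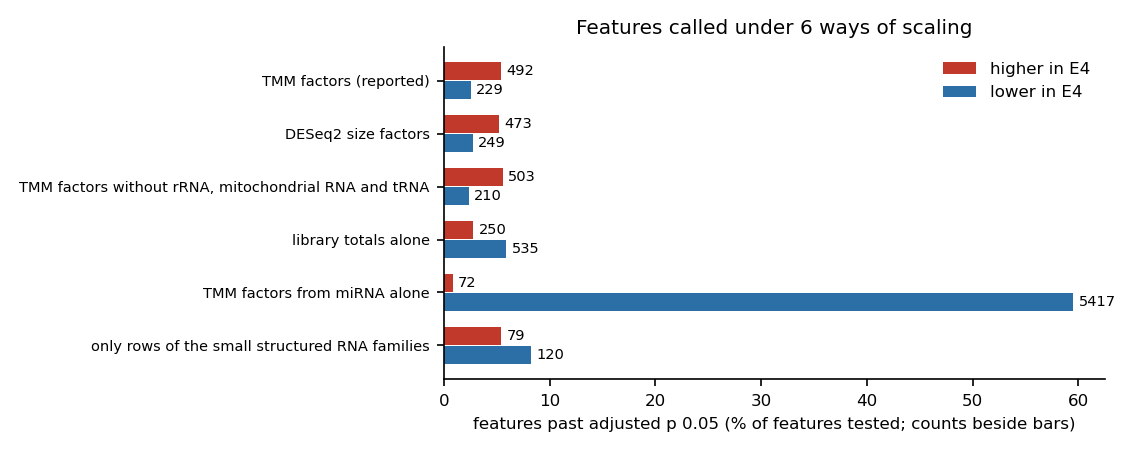
Features past the threshold as a percent of features tested, higher in E4 above lower in E4, under 6 ways of scaling, with their numbers beside the bars. Higher calls outnumber lower ones under the upper 3 scalings (492 against 229 in the reported one) and lower calls outnumber higher ones under the other 3.

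Sums over families and over tRNA anticodons, which pool copies with shared reads, were tested in the same model. Whether a read shared by copies was counted once is not known. Of 71 sums, 24 were higher in E4 and 0 lower, while 5.66% of the 9169 rows of that table were higher. The 24 were 18 of 48 anticodons and 6 of 23 families: C/D snoRNA, H/ACA snoRNA, scaRNA, snaR, miRNA and RMRP. With library totals as the scaling, C/D snoRNA (0.99) and snaR (1.30) were the only families that stayed higher. Among short structured RNAs alone, none of these families stayed higher. The counts depend on single libraries. Without each library in turn, 6 to 20 sums were higher, 6 of them without E4 replicate 1, 9 without mock replicate 2, 12 without E4 replicate 2, 13 without mock replicate 3, 15 without E4 replicate 3 and 20 without mock replicate 1. Only the sums for tRNA-Tyr-GTA, tRNA-Leu-TAG, tRNA-Lys-TTT, tRNA-Leu-AAG and tRNA-Gly-CCC passed in all 6 of these fits.

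Among the Y RNAs, RNY5 and RNY1 rose. RNY5 had 561, 398 and 535 CPM in E4, against 188, 181 and 175 CPM in mock. All 3 E4 libraries were above all mock libraries, and the log2 fold change was 1.46 ± 0.33 (SE; edgeR adjusted p = 0.0115). RNY1 had 2050, 2168 and 2490 CPM in E4, against 544, 1360 and 1196 CPM in mock. The groups did not overlap, mock replicate 1 was the lowest library, and the log2 fold change was 1.11 ± 0.32 (edgeR adjusted p = 0.0434). RNY3 went the other way in value, with 626, 590 and 789 CPM in E4 and 1146, 1158 and 991 CPM in mock, but did not pass (-0.72 ± 0.27, edgeR adjusted p = 0.117). RNY4 overlapped, at 2875, 2622 and 3604 CPM in E4 and 3206, 3480 and 3183 CPM in mock. The 4 Y RNAs are neighbours within one cluster on chromosome 7, and their sum did not pass (0.20 ± 0.26, edgeR adjusted p = 0.707). The RNY5 call was lost only without mock replicate 3, with an adjusted p of 0.0505; that of RNY1 was lost without any library other than mock replicate 2, with an adjusted p of up to 0.118 (edgeR).

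The vault RNAs, components of the vault particle apart from nc886, did not pass the test. VTRNA2-1 had 6025, 4977 and 6685 CPM in E4, against 10660, 3728 and 3238 CPM in mock. The E4 libraries lay between mock replicate 1 and the other mock libraries, and the log2 fold change was 0.00 ± 0.40 (edgeR adjusted p = 0.997). VTRNA1-1 had 634, 557 and 708 CPM in E4 and 744, 407 and 349 CPM in mock, with the same placing of mock replicate 1. VTRNA1-2 was above mock in all E4 libraries, at 16.8, 15.9 and 18.5 CPM against 13.7, 8.82 and 10.3 CPM, and did not pass (0.65 ± 0.21, edgeR adjusted p = 0.0718). VTRNA1-3 was near 2 CPM, overlapping.

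RMRP, the RNA of RNase MRP, which cuts pre-rRNA, had 299, 293 and 153 CPM in E4, against 120, 64.4 and 107 CPM in mock. The groups did not overlap, with E4 replicate 3 nearest to mock, and the log2 fold change was 1.35 ± 0.40 (edgeR adjusted p = 0.0440). The call was lost without E4 replicate 1, E4 replicate 2, mock replicate 2 or mock replicate 3, with an adjusted p of up to 0.169 and a log2 fold change of 1.13 to 1.61 over the 6 fits. RPPH1, the RNA of RNase P, which trims tRNA 5′ ends, had 550, 658 and 407 CPM in E4 and 212, 301 and 312 CPM in mock, without overlap, and did not pass (0.97 ± 0.34, edgeR adjusted p = 0.0926). RN7SK, which holds the elongation factor P-TEFb inactive, had 4858, 4753 and 4997 CPM in E4 and 3658, 3575 and 3761 CPM in mock. The libraries of each group lay close together and the groups did not overlap, but the log2 fold change of 0.41 ± 0.24 did not pass (edgeR adjusted p = 0.353). The sum of the 3 RN7SL genes overlapped, with 202, 181 and 153 CPM in E4 and 181, 111 and 93.9 CPM in mock.

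**Figure D3:**
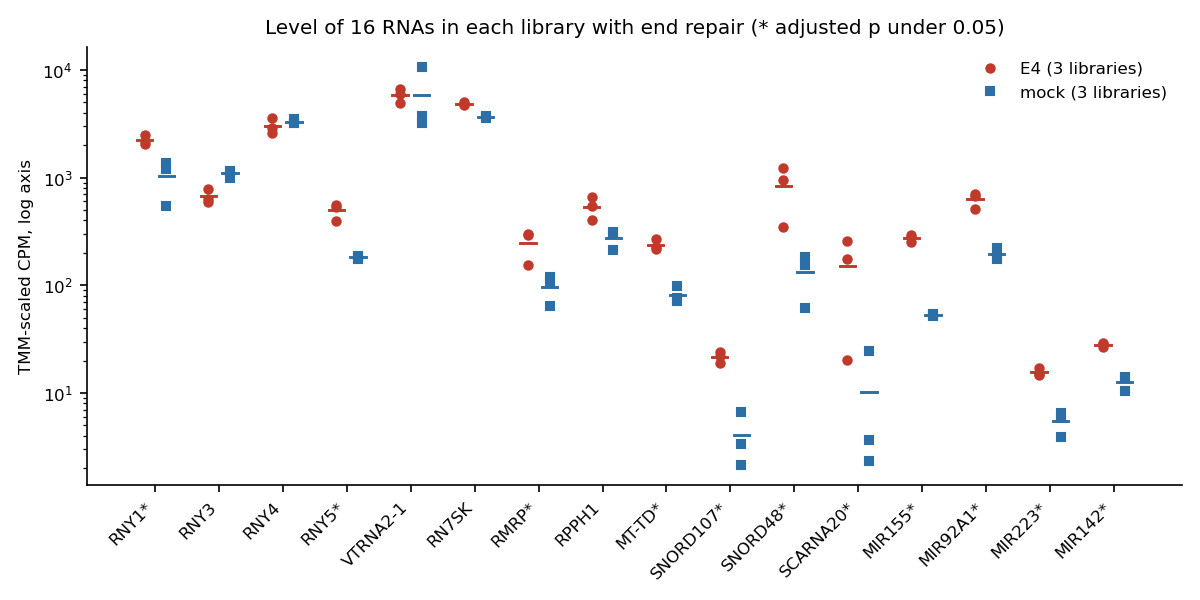
TMM-scaled CPM (log axis) of 16 RNAs in each library, E4 circles left of mock squares, bars at the group means; an asterisk marks an adjusted p under 0.05. RNY5, MT-TD, MIR155 and SNORD107 separate widely, VTRNA2-1 and RNY4 overlap, and E4 replicate 3 is the low circle for SNORD48, SCARNA20 and RMRP.

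5S rRNA summed to 14220, 11240 and 9839 CPM in E4, against 11610, 4056 and 4872 CPM in mock. Mock replicate 1 was within the E4 range, and the sum did not pass (0.78 ± 0.42, edgeR adjusted p = 0.294). Of 73 rows 5 were higher, which became 26 of 78 without mock replicate 1. U6, the catalytic RNA of the spliceosome, summed to 272, 234 and 287 CPM in E4 and 359, 266 and 227 CPM in mock, and 0 of its 9 rows passed. In 21 of 45 U6 pseudogene rows all E4 libraries were below mock, as in 1229 of all 9098 features. Lower calls were 3 of the 45 rows, beside 2.52% of all features. The U6 pseudogene sum was 282, 227 and 251 CPM in E4 against 369, 381 and 306 CPM in mock (-0.47 ± 0.22, edgeR adjusted p = 0.209). RNU6ATAC, of the minor spliceosome, was at 1.71, 0.663 and 1.23 CPM in E4 and 2.79, 2.84 and 2.67 CPM in mock and did not pass (-1.21 ± 0.46, edgeR adjusted p = 0.122). When only short structured RNAs were tested, the sums of U6, U6 pseudogenes, U6atac and Y RNA pseudogenes were lower in E4, at log2 fold changes of -0.81, -1.21, -1.57 and -1.07.

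The snaR RNAs, Pol III transcripts of chromosome 19 that bind the nuclear factor NF90, summed to 121, 101 and 37.1 CPM in E4, against 34.1, 24.8 and 28.7 CPM in mock. All E4 libraries were above all mock libraries, replicate 3 only just, and the log2 fold change was 1.57 ± 0.40 (edgeR adjusted p = 0.0214). The call was lost without E4 replicate 1, E4 replicate 2, mock replicate 2 or mock replicate 3, with log2 fold changes of 1.24 to 1.94 over the 6 fits and an adjusted p of up to 0.109 (edgeR). Of the 12 copies, which share reads, 8 were higher; that number was 11 without E4 replicate 3, 2 without mock replicate 3, and 1 without E4 replicate 1, E4 replicate 2 or mock replicate 2. The copy with the largest change, one of those named SNAR-A1, had 10.2, 9.55 and 2.32 CPM in E4 and 1.396, 0.507 and 1.09 CPM in mock.

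tRNA as a whole did not pass, but many anticodons did. The nuclear tRNA sum was 99570, 92890 and 111700 CPM in E4, against 119000, 58020 and 55570 CPM in mock (0.39 ± 0.34, edgeR adjusted p = 0.557). Most of it is tRNA-Glu-CTC, a frequent source of tRNA fragments, at 67460, 62410 and 82450 CPM in E4 and 93340, 37010 and 33510 CPM in mock, with mock replicate 1 above every E4 library. Of the 48 anticodon sums, 34 were above mock in all E4 libraries, 3 were below and 11 overlapped, and their median log2 fold change was 0.80. Among all 9098 features, 1425 were above mock in all E4 libraries and 1229 below. The 105 single rows that were higher became 67 without E4 replicate 1 and 75 to 85 without another library.

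tRNA-Tyr-GTA had the lowest adjusted p of the 71 sums. Its total was 572, 470.2 and 452 CPM in E4, against 96.1, 145 and 156 CPM in mock. The lowest E4 library was far above the highest mock library, and the log2 fold change was 1.91 ± 0.24 (edgeR adjusted p = 0.000160). Of its 12 copies 10 were higher and 0 lower. tRNA-Leu-TAG summed to 509.9, 490.0 and 397 CPM in E4 and 159.6, 77.9 and 110.2 CPM in mock, without overlap, at a log2 fold change of 2.01 ± 0.39 (edgeR adjusted p = 0.00381). tRNA-Lys-TTT summed to 701, 569 and 577 CPM in E4 and 217, 212 and 206 CPM in mock (1.54 ± 0.27, edgeR adjusted p = 0.00212).

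tRNA-Leu-AAG had 295, 271 and 284 CPM in E4 and 122, 93.9 and 104 CPM in mock (1.41 ± 0.24, edgeR adjusted p = 0.00193). tRNA-Gly-CCC had 1210, 1151 and 1132 CPM in E4 and 449, 407 and 473 CPM in mock (1.39 ± 0.22, edgeR adjusted p = 0.000983). In both, as in tRNA-Lys-TTT, the libraries of a group lay close together and the groups were well apart. These 5 anticodons stayed past the threshold with library totals as the scaling, at log2 fold changes of 1.60 for tRNA-Tyr-GTA, 1.75 for tRNA-Leu-TAG, 1.25 for tRNA-Lys-TTT, 1.14 for tRNA-Leu-AAG and 1.11 for tRNA-Gly-CCC. Among short structured RNAs alone, only tRNA-Leu-TAG (1.32) and tRNA-Tyr-GTA (1.14) stayed higher, while tRNA-Asp-GTC (-1.57) and tRNA-Gln-CTG (-1.72) were lower.

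The other 13 higher anticodons had log2 fold changes of 0.82 to 1.29: Arg-ACG, Arg-CCT, Arg-TCT, Asn-GTT, Cys-GCA, Leu-CAA, Leu-CAG, Phe-GAA, Pro-AGG, Pro-CGG, Ser-CGA, Ser-GCT and Thr-AGT. Each lost its call without at least 1 library: 12 without E4 replicate 1, 9 without mock replicate 2, 7 without E4 replicate 3, 6 each without E4 replicate 2 or mock replicate 3, and 5 without mock replicate 1. Arg-ACG, Asn-GTT and Cys-GCA lost it without E4 replicate 1 alone, Ser-GCT without mock replicate 2 alone, and Arg-TCT in all 6 fits. tRNA-Val-CAC, which carries valine, had 10990, 11500 and 8993 CPM in E4 and 2939, 5578 and 6956 CPM in mock, without overlap, and did not pass (1.02 ± 0.35, edgeR adjusted p = 0.0829). The initiator tRNA-iMet-CAT overlapped, at 221, 122 and 164.6 CPM in E4 and 338, 81.2 and 64.5 CPM in mock. tRNA-Gly-GCC, another frequent source of tRNA fragments, was just below mock in all E4 libraries, at 2598, 2499 and 2612 CPM in E4 and 2671, 2847 and 2718 CPM in mock, and did not pass (-0.10 ± 0.43). tRNA-Asp-GTC and tRNA-Gln-CTG, with log2 fold changes of -0.97 and -0.92, did not pass; in tRNA-Asp-GTC mock replicate 1 had 9807 CPM, against 2276 and 2344 CPM in the other mock libraries.

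**Figure D4:**
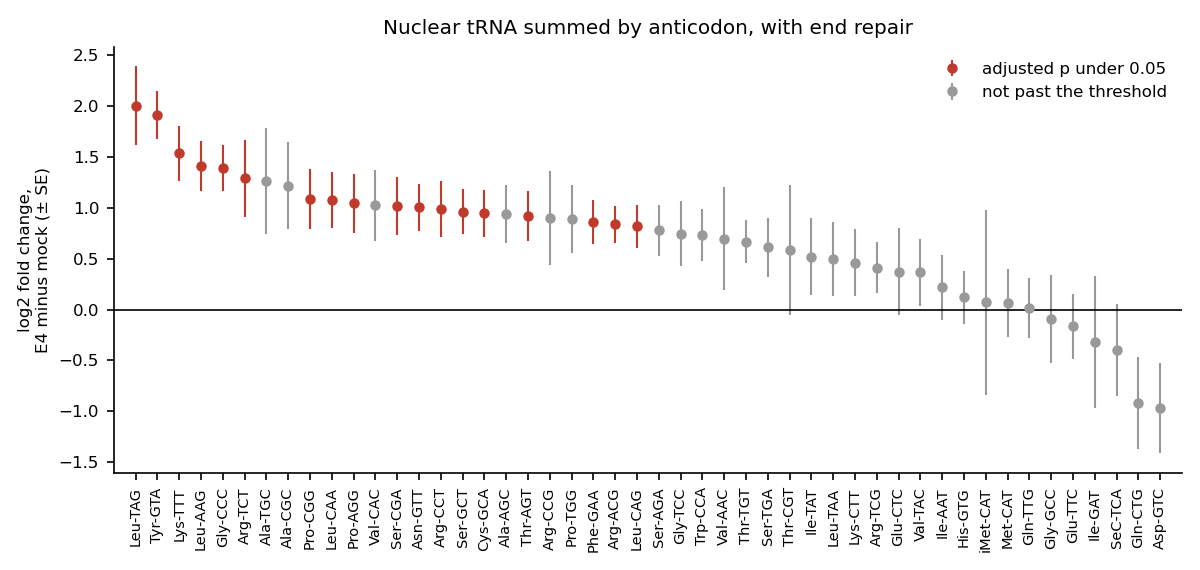
Log2 fold change of E4 minus mock (± SE) for nuclear tRNA summed by anticodon, in order of size; filled red points have an adjusted p under 0.05. Leu-TAG (2.01) and Tyr-GTA (1.91) lead, and Asp-GTC (-0.97) and Gln-CTG (-0.92) are lowest and not past the threshold.

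Single tRNA copies are uncertain where their reads are shared, and the largest changes among copies were in rare ones. tRNA-Tyr-GTA-6-1 (chromosome 6, 26594874 to 26594962) had 14.8, 8.23 and 10.5 CPM in E4, against 0.977, 0.405 and 1.33 CPM in mock, the groups well apart (3.64 ± 0.45, edgeR adjusted p = 0.000138). tRNA-Arg-TCT-5-2 on chromosome 9 had 13.5, 7.96 and 13.5 CPM in E4 and 0.838, 1.32 and 0.969 CPM in mock (3.43 ± 0.34, edgeR adjusted p = 1.97e-05). tRNA-Asn-GTT-24-1, tRNA-Gly-CCC-5-1 and tRNA-Ile-TAT-1-2 were higher by log2 fold changes of 2.996, 3.10 and 2.92. In the anticodon Ile-TAT copies went both ways: tRNA-Ile-TAT-1-1 was lower, at 0.711, 1.46 and 2.04 CPM in E4 and 8.38, 4.87 and 4.60 CPM in mock (-2.05 ± 0.60, edgeR adjusted p = 0.0458), a call that was lost without any single library (adjusted p 0.0686 to 0.1699, edgeR).

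Mitochondrial tRNA, cut out of long polycistronic transcripts of mitochondrial DNA, had 9 of 20 members higher and 0 lower, with 16 above mock in all E4 libraries. Among all 9098 features, 492 were higher, and 1425 were above mock in all E4 libraries. The 9 became 3 with library totals and 0 among short structured RNAs alone, 0 with 3 lower with miRNA factors, and 4 to 11 with single libraries left out, 4 without E4 replicate 2 or mock replicate 2. MT-TD, for aspartate, had 215, 225 and 269.5 CPM in E4, against 70.9, 97.5 and 76.6 CPM in mock. The groups were well apart, and the log2 fold change was 1.53 ± 0.27 (edgeR adjusted p = 0.00206). MT-TN, for asparagine, had 336, 448 and 157 CPM in E4 and 132, 86.9 and 61.5 CPM in mock (1.75 ± 0.43, edgeR adjusted p = 0.0192). E4 replicate 3 was closest to mock there, and the call was lost without E4 replicate 1, E4 replicate 2, mock replicate 2 or mock replicate 3 (adjusted p up to 0.0964, edgeR). The 3 most abundant ones moved little: MT-TS2 by 0.33, MT-TL2 by 0.30 and MT-TE by 0.17, none past the threshold. The mitochondrial tRNA sum did not pass (0.51 ± 0.22, edgeR adjusted p = 0.173), nor did mitochondrial rRNA (0.43 ± 0.22, edgeR adjusted p = 0.273), although all E4 libraries were above mock in both.

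Of 204 tested C/D snoRNAs, 114 were higher in E4 and 0 lower. The sum was 148600, 144000 and 181700 CPM in E4, against 107500, 47150 and 47610 CPM in mock. No E4 library fell within mock, and the log2 fold change was 1.23 ± 0.37 (edgeR adjusted p = 0.0477). The sum passed without mock replicate 1 (1.76) and in no other fit with a library left out (1.03 to 1.30, adjusted p up to 0.183, edgeR). The number of the 204 to 208 tested members called was 156 without mock replicate 1, 93 without E4 replicate 3, 78 without E4 replicate 1 or 2, 65 without mock replicate 3 and 63 without mock replicate 2, with 0 lower in each fit.

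None of the 5 most abundant C/D snoRNAs passed. SNORD49A had 20560, 18260 and 27450 CPM in E4, against 13910, 8015 and 7635 CPM in mock (1.16 ± 0.38, edgeR adjusted p = 0.0667). SNORD44, from the host gene GAS5, had 18820, 16680 and 23670 CPM in E4 and 15260, 5927 and 5686 CPM in mock (1.14 ± 0.42, edgeR adjusted p = 0.105). In these, as in SNORD63, SNORD29 and SNORD81, all E4 libraries were above all mock libraries and mock replicate 1 was the highest of its group.

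Among the named members the largest rises were in less abundant ones, whose sequences are shown above. SNORD48 had 955, 1217 and 346 CPM in E4, against 181, 61.3 and 156 CPM in mock. E4 replicate 3 was far below the others in E4 yet above mock, and the log2 fold change was 2.66 ± 0.57 (edgeR adjusted p = 0.00783). SNORD107, from the imprinted region of chromosome 15, had 22.0, 24.2 and 19.1 CPM in E4 and 6.70, 2.13 and 3.39 CPM in mock (2.45 ± 0.35, edgeR adjusted p = 0.000394). Its E4 libraries were close together and well above mock.

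H/ACA snoRNAs, which guide pseudouridylation, summed to 2203, 2228 and 1303 CPM in E4, against 1097, 757 and 1015 CPM in mock (1.00 ± 0.28, edgeR adjusted p = 0.0354). E4 replicate 3 stood low in its group here too. The call was lost without E4 replicate 1, E4 replicate 2, mock replicate 2 or mock replicate 3 (adjusted p up to 0.148, edgeR), and the 23 members called became 6 to 26. SNORA7B had 21.5, 24.2 and 4.63 CPM in E4 and 2.65, 2.43 and 3.63 CPM in mock (2.52 ± 0.55, edgeR adjusted p = 0.00888), and SNORA71D 15.2, 14.7 and 3.54 CPM in E4 and 2.79, 1.32 and 2.67 CPM in mock (2.33 ± 0.49, edgeR adjusted p = 0.00701). In both, the rise was carried by E4 replicates 1 and 2. SNORA62, among the 5 most abundant, overlapped (0.45 ± 0.38).

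The scaRNAs, which guide modification of spliceosomal RNAs in Cajal bodies, summed to 474, 541 and 251 CPM in E4, against 171, 162 and 203 CPM in mock (1.24 ± 0.29, edgeR adjusted p = 0.0145). The groups did not overlap, and the call was lost without E4 replicate 1, E4 replicate 2 or mock replicate 2 (adjusted p up to 0.0786, edgeR). SCARNA20 had the largest change but overlapping groups: 177, 257 and 20.3 CPM in E4, against 3.63, 2.33 and 24.7 CPM in mock. Here E4 replicate 3 was at the level of mock replicate 3, and the log2 fold change of 3.89 ± 1.01 (edgeR adjusted p = 0.0244) ranged from 3.28 to 5.67 with single libraries left out. SCARNA11 was even, with 15.9, 12.9 and 11.6 CPM in E4 and 4.47, 4.36 and 5.57 CPM in mock (1.48 ± 0.26, edgeR adjusted p = 0.00187).

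The Pol II snRNAs of the spliceosome had 15 of 75 rows higher and 2 lower, and their sum did not pass (0.50 ± 0.33, edgeR adjusted p = 0.408). RNU11 and RNU12, of the minor spliceosome, overlapped and had log2 fold changes of -0.11 and -0.06. Among copies, RNVU1-17, a variant U1, was higher (1.38 ± 0.30, edgeR adjusted p = 0.00838; lost without mock replicate 3, 0.0505) and RNVU1-6, another variant U1, was lower, with 1.85, 0.929 and 1.499 CPM in E4 and 4.33, 4.05 and 6.42 CPM in mock (-1.78 ± 0.33, edgeR adjusted p = 0.00314). With only short structured RNAs tested, 0 snRNA rows were higher and 9 were lower. Of the calls with all rows, 3 to 21 were higher and 2 lower when single libraries were left out.

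miRNA, which small RNA ligation takes up without repair, summed to 7033, 7058 and 6815 CPM in E4, against 3879, 3383 and 3074 CPM in mock. The groups were well apart, and the log2 fold change was 1.02 ± 0.30 (edgeR adjusted p = 0.0456). It passed with each library left out only without mock replicate 1 (1.13), the adjusted p being up to 0.153 otherwise (edgeR). Of 203 rows 59 were higher and 2 lower. With single libraries left out 29 to 61 were higher: 29 without mock replicate 3, 32 without mock replicate 2, 34 without E4 replicate 1 and 35 without E4 replicate 2. With library totals 29 were higher and 5 lower, with miRNA factors 9 and 33, and among short structured RNAs alone 10 and 10 of 204. The miRNA factors are set on these same rows, so they centre the miRNA differences by construction. Among rows of at least median abundance the largest rise was MIR155, processed from the transcript of the BIC gene and typical of activated immune cells, with 294, 254 and 281 CPM in E4, against 52.6, 51.4 and 53.9 CPM in mock. Libraries within a group differed little, and the log2 fold change was 2.39 ± 0.43 (edgeR adjusted p = 0.00239).

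Of the haematopoietic miRNA list, 5 of 8 members were abundant enough to test and 4 were higher, where 59 of all 203 miRNA rows and 5.41% of all features were. The list summed to 313 to 358 CPM in E4, against 76.4 to 78.9 CPM in mock. Most of each sum was MIR155 alone, at 254 to 294 CPM in E4 and 51.4 to 53.9 CPM in mock. MIR144 and MIR451A, of the red cell lineage, had 0 counts in all 6 libraries, and MIR150 had 1 count, in E4 replicate 2. MIR223, a myeloid miRNA, had 17.2, 14.6 and 15.1 CPM in E4 and 3.91, 5.88 and 6.54 CPM in mock (1.51 ± 0.36, edgeR adjusted p = 0.0141). MIR142, found in most blood cells, had 29.2, 28.7 and 26.4 CPM in E4 and 13.7, 14.0 and 10.4 CPM in mock (1.14 ± 0.30, edgeR adjusted p = 0.0255). Both were thus detected in all mock libraries. MIR146A had 6.26, 6.50 and 2.998 CPM in E4 and 0.977, 1.22 and 0.969 CPM in mock (2.285 ± 0.38, edgeR adjusted p = 0.00145), and MIR342 did not pass (0.92 ± 0.35). The MIR223 call was lost without E4 replicate 1 (adjusted p = 0.0549, edgeR) and that of MIR142 without E4 replicates 1 or 2 or mock replicates 2 or 3 (up to 0.112, edgeR).

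Of the monocyte-macrophage list, 4 of the 7 tested members were higher: MIR146B, MIR222, MIR221 and MIR27A. This too is to be read against 59 of 203 miRNA rows. MIR146B had 16.6, 21.6 and 17.2 CPM in E4, against 5.03, 6.49 and 5.57 CPM in mock (1.69 ± 0.24, edgeR adjusted p = 0.000421). MIR222 had 81.9, 79.6 and 78.1 CPM in E4 and 29.9, 21.5 and 20.1 CPM in mock (1.75 ± 0.32, edgeR adjusted p = 0.00248), and MIR221 rose by 1.64. MIR21, MIR23A and MIR29A did not pass. Of markers of other cells, MIR192 of kidney was at 0.853, 1.73 and 1.36 CPM in E4 and 0.977, 0.710 and 0.121 CPM in mock. MIR200C of epithelia was at 0.711, 1.46 and 1.23 CPM in E4 and 0, 0.304 and 0.242 CPM in mock, and was called higher (2.44 ± 0.64, edgeR adjusted p = 0.0262), as was MIR199B of fibroblasts (1.45 ± 0.39, edgeR adjusted p = 0.0307), at 2.275 to 2.59 CPM in E4 and 0.608 to 1.09 CPM in mock; both calls were lost without mock replicate 1, among other libraries. MIR141, MIR429 and MIR205 of epithelia and MIR204 of kidney had 0 counts in all 6 libraries. The part of cell type in the miRNA differences was not tested.

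Of the 9 miRNAs of the MIR17-92 and MIR106B-25 clusters, which MYC and E2F factors drive in dividing cells, 6 were higher and 0 lower, beside 59 of 203 miRNA rows higher. MIR92A1 had 678, 705 and 515 CPM in E4, against 224, 181 and 176 CPM in mock (1.71 ± 0.39, edgeR adjusted p = 0.0109). MIR19B1 had 46.1, 38.2 and 51.1 CPM in E4 and 12.6, 17.1 and 11.99 CPM in mock (1.69 ± 0.26, edgeR adjusted p = 0.000698). MIR17 and MIR20A rose by 1.83 and 1.74. In each, all E4 libraries were above all mock libraries, and only the MIR92A1 call among these 4 was lost with a library left out, mock replicate 3 (adjusted p = 0.0530, edgeR). Of 11 let-7 loci, some of which have the same mature sequence, 4 were higher (MIRLET7E, MIRLET7F1, MIRLET7F2 and MIRLET7G) and 0 lower, a share near that of all miRNA rows. None of these list counts is set apart from the miRNA class by a test. The most abundant, MIRLET7B, had 334, 307 and 391 CPM in E4 and 211, 97.9 and 94.6 CPM in mock and did not pass (1.35 ± 0.43, edgeR adjusted p = 0.0636).

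Long non-coding RNA rows mostly lay over coding genes: 5832 of 7636 over an exon, 548 over an intron and 1256 outside, by GENCODE release 29. As counts ignore strand, such rows can count fragments of the coding transcript. Among long rows of at least median abundance (3.27 CPM over all features tested) the largest rise was lnc-TGFB1-6, over an exon of AXL, a receptor kinase, with 7.96, 8.36 and 10.4 CPM in E4, against 1.54, 0.203 and 0.727 CPM in mock (3.51 ± 0.37, edgeR adjusted p = 3.195e-05). lnc-NUAK1-5, over an exon of CKAP4 on chromosome 12, had 28.3, 40.3 and 32.7 CPM in E4 and 2.93, 4.05 and 3.63 CPM in mock (3.24 ± 0.28, edgeR adjusted p = 6.06e-06). HSALNG0099819, outside coding genes on chromosome 14, was higher by 3.197. Rows were ranked only if the groups did not overlap, so the lack of overlap here is no separate result.

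By the same measure the largest falls included lnc-TRDMT1-5, over an exon of VIM, which encodes the intermediate filament vimentin. It had 0.427, 0.796 and 0.545 CPM in E4, against 4.61, 7.10 and 7.39 CPM in mock (-3.40 ± 0.33, edgeR adjusted p = 1.78e-05). The row lies on chromosome 10. ZRANB2-AS2 over NEGR1 (-2.20), lnc-NPTX1-6 over NPTX1 (-2.10), HSALNG0098605 over GPC5 (-1.99), ENSG00000287978.1 outside coding genes on chromosome 1 (-1.86), HSALNG0039557 over LPCAT1 on chromosome 5 (-1.80) and lnc-NFS1-3 over RBM39 (-1.72) were also lower. Lack of overlap between the groups was a condition for these rows too.

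Falls and rises of long rows lay together along a few chromosomes, in stretches that were chosen after their values were seen and are given as a description. On the first 50 Mb of chromosome 5, 87 of 94 rows had a log2 fold change below 0, with a median of -1.13, and 45 were lower past the threshold. Their summed level was 589, 595 and 595 CPM in E4, against 1154, 1260 and 1251 CPM in mock. Over the rest of chromosome 5 the median of 337 rows was -0.08. On chromosome 10, 27 of 215 rows were lower and 0 higher, with a median of -0.58, and sums of 791, 799 and 817 CPM in E4 and 1134, 1108 and 1118 CPM in mock. On chromosome 12 from 80 to 130 Mb, 34 of 136 rows were higher and 0 lower, with a median of 0.81, and sums of 1353, 1365 and 1416 CPM in E4 and 923, 952 and 955 CPM in mock; the other 276 rows of that chromosome had a median of -0.08. On chromosome 21 beyond 25 Mb, 9 of 73 rows were higher and 2 lower, with a median of 0.37.

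The E4 libraries lay close together in each of these stretches. Rows over exons and over introns had medians of -1.14 and -1.02 on the first part of chromosome 5, -0.59 and -0.75 on chromosome 10, 0.82 and 0.68 on the stretch of chromosome 12, and 0.42 and 0.15 on that of chromosome 21. The 7 short structured RNAs tested on the first part of chromosome 5 had a median of -0.25. Such RNAs had a median of 0.80 on the rest of that chromosome (62 tested) and 0.74 outside the 4 stretches (1404 tested). On chromosome 10 and the stretches of chromosomes 12 and 21 their medians were 0.42, 0.83 and 2.37 (31, 17 and 3 tested). Whether short RNAs follow the long rows was not tested. A7, G8 and A4 are further groups labelled THP-1, with no disrupted gene named; they are set beside the same mock libraries, which the groups share. On the first part of chromosome 5 the sums were 595, 640 and 634 CPM in A7 and 563, 607 and 631 CPM in G8, near E4, and 1084, 971 and 1115 CPM in A4, near mock. On chromosome 10 all 4 groups were at 777 to 884 CPM, below mock. On the stretch of chromosome 12, A7 was at 1396 to 1470 CPM and G8 at 1314 to 1494 CPM, near E4. A4 had 972, 2136 and 1008 CPM there, its replicate 2 above every E4 library. On the stretch of chromosome 21, E4 had 461, 465 and 447 CPM and mock 318, 383 and 365 CPM. A7 was near E4 there, at 442, 454 and 467 CPM, while A4 and G8 were at 292 to 325 CPM. With the 4 stretches set aside, 7098 other rows had a median of -0.06, with 87 higher and 143 lower. With single libraries left out the median of the first part of chromosome 5 was -1.09 to -1.15, and its 45 falls became 30 to 38. The 27 falls on chromosome 10 became 12 to 19, the lowest number without E4 replicate 2 or mock replicate 3, and over 15 only without mock replicate 1. The 34 rises on chromosome 12 became 19 to 28, with 19 without mock replicate 2 and 21 without E4 replicate 2. The 9 rises on chromosome 21 became 4 to 9, with 4 without E4 replicate 1 and 5 without E4 replicate 3. With library totals there were 60 falls on the first part of chromosome 5, 55 falls on chromosome 10, 9 rises on the stretch of chromosome 12, and 1 rise and 3 falls on that of chromosome 21. With miRNA factors the medians on chromosomes 12 and 21 turned to -0.31 and -0.75.

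**Figure D5:**
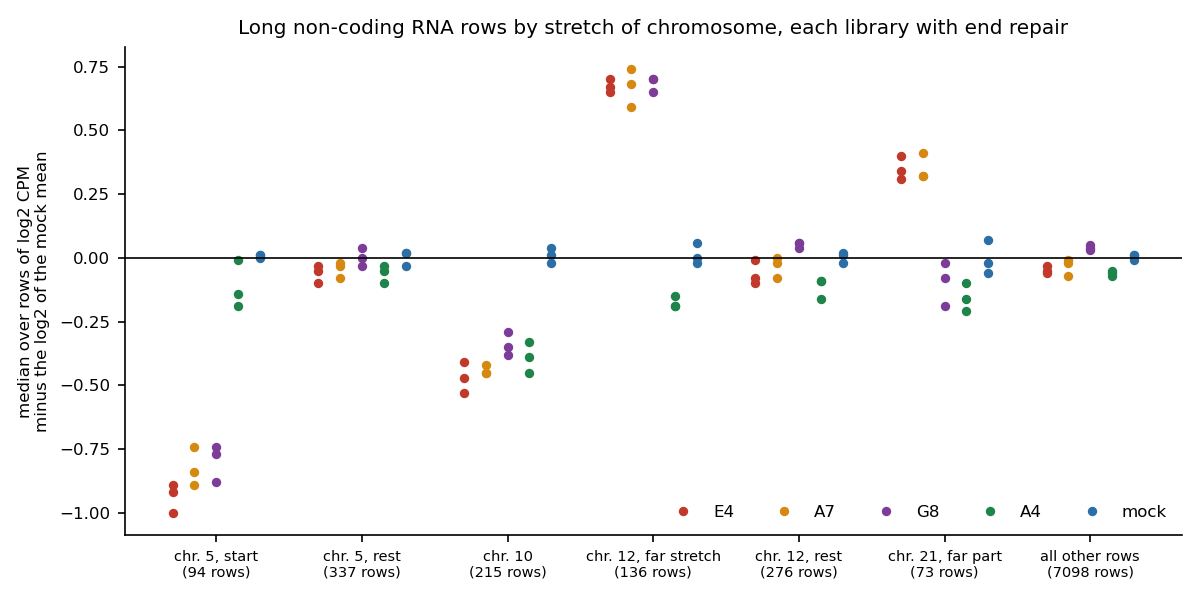
Median over long rows of the log2 CPM of each library minus the log2 of the mock mean (a pseudocount of 0.5 CPM added), by stretch of chromosome, for E4, A7, G8, A4 and mock with end repair. The E4 points lie between -0.89 and -1 at the start of chromosome 5 and above 0.6 on the far stretch of chromosome 12, where A4 lies with mock, while all 4 groups lie below mock on chromosome 10.

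Whether the E4 and mock difference read after end repair differs from that read without it was tested as an interaction over the 12 libraries of both arms, with TMM factors within each arm. Of 9170 features, 148 passed (1.61%), 141 with a larger E4 over mock ratio after end repair and 7 with a smaller one. An unadjusted p under 0.05 was found for 993 (edgeR). The median interaction was 0.17. VTRNA2-1 was level after repair and had a log2 fold change of -1.88 without it, an interaction of 1.87 ± 0.47 (edgeR adjusted p = 0.0221). RNY5 had 1.43 after repair and -0.20 without (interaction 1.63 ± 0.40, edgeR adjusted p = 0.0206). Sums were tested in a separate fit with its own adjustment. There snaR, tRNA-Leu-CAG, tRNA-Leu-TAG, tRNA-Met-CAT and tRNA-Val-CAC passed, with interactions of 1.51 to 2.04. For tRNA-Met-CAT the log2 fold change was 0.04 after repair and -1.90 without. The family sums of C/D snoRNA (1.22), miRNA (0.74) and nuclear tRNA (0.74) did not pass. These calls rest on the scaling and on single libraries: 16 passed with miRNA factors, 14 of them negative, 59 with library totals, 445 without mock replicate 1 of the end-repaired arm, 89 without E4 replicate 1 of that arm, and 78 and 80 without E4 replicates 1 and 2 of the other arm.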

How the data were processed

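The count table was deposited by the authors as reads per annotated row, not normalized, and the labels describe treatment with phosphatase and kinase and a NEBNext small RNA kit. Per the submitters' processing notes the tools were Trim Galore, FastQC, Bowtie2 2.3.5.1, SAMtools 1.9, deepTools 3.2.1 and bedtools 2.28.0 with GRCh38; their settings are not given in the sources used here. A row lying opposite a short RNA held no fewer reads than that RNA in 695 of 695 pairs, so the deposited counts ignore strand, and a read was counted in every row it overlapped. The 175946 rows were thinned to 85936 without overlap, short structured RNAs first; 2191 of 2269 shared symbols lay at the same place in GENCODE release 29, which placed the long rows.

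The test was that of edgeR 4.0.16 (R 4.3.3): TMM factors, filterByExpr (9098 features, 99.5% of counts), the quasi-likelihood fit over 15 end-repaired libraries of 5 groups, and Benjamini-Hochberg adjustment at 0.05. The biological coefficient of variation was 24.1%. CPM are TMM-scaled, and fitted log2 fold changes use edgeR's default prior count. A prior count of 2 was used for the log CPM behind the correlations between libraries. Depth was 6.50 to 7.66 M counts per library. The feature test and the interaction test were checked on simulated counts with known changes, and the test of sums was not. The simulations held no library that stood apart as mock replicate 1 did.

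Named features were all tested members of the small Pol III families; the 10 largest rises and falls past the threshold, of at least median abundance and without overlap between groups, and the 2 largest per class; the 5 most abundant per class; and tested marker miRNAs. Not all are printed, and 1 fall that this rule names is not reported here. Other features, and the chromosome stretches, were chosen after their values were seen. Members, lists and tests were chosen with earlier results of these data known. Alternatives were other scalings (DESeq2 1.42.0 size factors, library totals, miRNA factors, factors without rRNA, mitochondrial RNA and tRNA), other filters and row sets, the 6 libraries alone, the DESeq2 test, a replicate block, and leaving out libraries.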

Additional observations from a re-analysis of the deposited data

Results flagged for a closer look

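For 25 named features and sums, the E4 over mock log2 fold change differed between end-repaired and unrepaired libraries, tested as an interaction (edgeR, adjusted p under 0.05). Each value is the fold change after repair minus that without it, and all are positive. Several of the features were named for large rises after repair, and these same values enter the interaction. The shared sign is therefore no separate result. Among Pol III RNAs it was 1.87 for VTRNA2-1 (-0.02 after repair, -1.88 without), 1.63 for RNY5 (1.43 and -0.20), 2.35 for a SNAR-A1 copy and 1.78 for the snaR sum. Among tRNA copies it was 2.45 for tRNA-Tyr-GTA-6-1, 3.17 for tRNA-Arg-TCT-5-2 (3.41 and 0.24), 1.75 for tRNA-Asn-GTT-24-1 and 2.74 for tRNA-Val-CAC-2-1 (0.94 and -1.81). Among anticodon sums it was 1.51 for Leu-CAG (0.79 and -0.71), 1.94 for Leu-TAG (1.98 and 0.04), 1.94 for Met-CAT (0.04 and -1.90) and 2.04 for Val-CAC (1.00 and -1.05).

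It was 1.84 for MT-TD (1.51 and -0.33), 1.86 for SNORD107 and 1.77 for the U2 copy U2_snRNA_URS00006BFA75. Among miRNA loci it was 1.67 for MIR155 (2.37 and 0.70), 2.09 for MIR103A2, 1.73 for MIR23A, 1.58 for MIR146B, 1.62 for MIR17, 1.72 for MIR19B1 and 1.56 for MIR20A. Among long rows it was 1.53 for HSALNG0099819, 1.66 for lnc-SAMD11-13 (0.63 and -1.03) and 2.48 for lnc-SAMD11-12 (0.71 and -1.76). All 25 kept a positive sign in every alternative fit, while many lost the call. The number lost was 25 with miRNA factors, 22 with the replicate number as a block within each arm, 14 with library totals, 11 each without E4 replicate 1 or 2 of the unrepaired libraries or E4 replicate 1 of the repaired ones, and 0 to 6 without another library. In a fit with each repaired library paired with the unrepaired library of its group and number, added after the data were seen, 3 were lost: HSALNG0099819, the SNAR-A1 copy and the U2 copy.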

How the results depend on the processing

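Groups of 3 and the spread within mock and within E4 limit these results, and directions are relative to the scaling. Of 59 named features called, 34 passed whichever single library was left out, as did 5 of the 24 sums. Many of the named features were chosen for the largest changes in these same libraries. Their share that passed is therefore no measure of how far calls hold among all features. Features called, 721 with TMM factors, were 399 to 688 with 1 library left out, 5489 (72 higher, 5417 lower) with miRNA factors, 4716 with every deposited row and 199 of 1464 with short structured RNAs alone. Sums called, 24, were 7 with library totals, 8 (2 higher, 6 lower) with short structured RNAs alone, 6 to 20 with 1 library left out and 14 without E4 replicate 3 and mock replicate 1 together, a setting chosen after seeing the data. Interactions called, 148, were 59 with library totals, 16 with miRNA factors and 78 to 445 with 1 library left out. The cause was not tested. With DESeq2 size factors, factors without rRNA, mitochondrial RNA and tRNA, other filters, the 6 libraries alone or the DESeq2 test, both counts for E4 against mock stayed within 1.5 times the reported ones.

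With the replicate number as a block (replicate block), 767 features and 24 sums were called. With library totals as well, these were 962 features and 10 sums. For the interaction 16 were called, or 128 with repaired and unrepaired libraries of a number paired (added after seeing the data). Same-numbered E4 and mock libraries had deviations that correlated at 0.023, -0.037 and -0.103. Same-numbered repaired and unrepaired libraries correlated at -0.091 to 0.153. In E4 each repaired library correlated most with the unrepaired one of its number (0.049, 0.062 and 0.153, against at most 0.039, 0.035 and -0.077). In mock only replicate 3 did so (0.025 against 0.01). Correlations this low cannot tell whether the numbers pair the samples.

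With miRNA factors, which move the median of all features to -1.12, these sums turned: 18S, 28S and 5.8S rRNA -1.09, H/ACA snoRNA -0.11, miRNA -0.09, vault RNA -1.0, and tRNA-Arg-ACG -0.28, Arg-CCT -0.09, Asn-GTT -0.13, Cys-GCA -0.19, Gln-TTG -1.12, His-GTG -1.01, Ile-AAT -0.95, Leu-CAA -0.01, Leu-CAG -0.30, Met-CAT -1.07, Phe-GAA -0.28, Pro-AGG -0.11, Pro-CGG -0.06, Ser-CGA -0.10, Ser-GCT -0.16 and Thr-AGT -0.16. So did VTRNA2-1 (-1.03), RNY1 (-0.05), lnc-MCTP1-2 (-1.01), tRNA-Leu-CAA-4-1 (-0.01), SCARNA9 (-0.22), RNA28SN3 (-1.08), RNA28SN2 (-1.08), MT-TE (-0.99) and MIRLET7A3 (-0.92). As the miRNA factors are set on the miRNA rows themselves, the small value of the miRNA sum follows from that scaling. With short structured RNAs alone, RNA28SN3 and RNA28SN2 turned to -0.69 each.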
